A study of Mus musculus with 7 samples.

Results

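The aminoacyl-tRNA synthetases, measured here as 35 genes read by 45 probes, had nearly the same signal in activated CD8 T cells labelled Lck-/- as in those labelled WT. The genes were taken by exact match of the gene name printed on the array, out of 24048 named genes, and comprised 19 cytosolic and 16 mitochondrial enzymes. Of these, 34 could be tested, and with 1 probe standing for each gene no estimated difference exceeded 1.28-fold. The exception was Nars2, the mitochondrial asparaginyl enzyme, whose probe was well above background on only 1 of 7 arrays and was not tested. None of the 34 passed the threshold between the groups, as was true of the whole array (0 of 14815 genes, or 0%).

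Each of these enzymes joins an amino acid to its transfer RNA, the step that fixes which amino acid a codon is read as. Separate nuclear genes, whose names end in 2, mostly serve the mitochondrial ribosome, while Gars and Kars each encode forms for both compartments. Class I and class II enzymes have unrelated catalytic folds, and several cytosolic enzymes sit in a multisynthetase complex held by the scaffold proteins encoded by Aimp1, Aimp2 and Eef1e1. When amino acids run short, uncharged tRNA activates the kinase GCN2 and the transcription factor ATF4, which is known to induce many cytosolic synthetases. Activated T cells enlarge their protein synthesis before they divide, with MYC among the factors that drive it.

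Total RNA came from mouse lymph node lymphocytes, described as CD8 T cells, with 1 array for each of 7 samples. Every mouse was OT-1het, with a transgenic T cell receptor for an ovalbumin peptide, and Rag-/-, which prevents rearrangement of other antigen receptors. All cells were cultured with 100 nM of the ovalbumin peptide SIINFEKL for 24 h. The 4 WT samples had no other stated allele. The 3 Lck-/- samples lacked endogenous Lck, the kinase that starts T cell receptor signalling, and carried a knocked-in Lck whose expression was removed by 7 days without doxycycline in the diet. No doxycycline feeding is described for the WT samples, so the effect of Lck loss and that of feeding or of the inducible gene cannot be told apart. With WT 1 left out, Xist was higher in Lck-/- by 7.13 on the log2 scale (limma adjusted p = 0.00696). Whether the groups differed in sex was not tested, and such a difference could not be told apart from Lck loss either. The promoter behind the inducible Lck, any sorting of the cells, the age and any pooling of mice are not given in the sources used here.

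All 7 arrays were on 1 slide with 1 scan, 46.57% to 61.06% of spots were well above background and none was saturated. By the row number in the array barcodes, WT 1, WT 4 and Lck-/- 2 lay in slide row 2 and the other arrays in row 1. The only Lck probe went against the labels on 2 arrays. It read 7.44, 7.67, 7.36 and 6.04 on WT 1 to WT 4 and 8.02, 6.21 and 6.17 on Lck-/- 1 to Lck-/- 3, so the library labelled WT 4 was lowest and the library labelled Lck-/- 1 highest. These and all later levels are log2 signal relative to the 75th percentile of the array, and differences are Lck-/- minus WT as labelled. Whether this probe lies outside the deleted part of Lck, or also reads the inducible copy, was not tested, nor was an exchange of labels. Across genes, WT 4 correlated with Lck-/- 1 to Lck-/- 3 at r of 0.983, 0.991 and 0.987. With WT 1 to WT 3 its r was 0.985, 0.985 and 0.982. Lck-/- 1 correlated with WT 1 to WT 3 at 0.983, 0.982 and 0.989, and with Lck-/- 2 and Lck-/- 3 at 0.981 and 0.985. Results are therefore also given without WT 4 and Lck-/- 1. The highest r of any pair, that of WT 4 with Lck-/- 2, joined arrays of the same slide row. So did the next, that of WT 3 with Lck-/- 1. WT 1 was in row 2 as well, yet its r with Lck-/- 2 was 0.981. The part of slide row in these correlations was not tested. All 7 listed CD8 T cell markers were tested and were well above background on every array with a value. Cd3e had none on WT 3, where it was left out as an outlier. All 7 had positive differences, with a median of 0.38, where 57.6% of all genes were positive. Of 6 listed B cell markers 2 were tested. Cd79b, well above background on all 7 arrays, differed by 0.53 (SE 0.24). Cd79a differed by 0.48 (SE 0.30). It was left out as an outlier on WT 3 and was well above background on the other arrays. Ms4a1 was not well above background on any array. The part of these cells in the results was not tested. Of 8 NK cell markers tested, all 8 had positive differences, and their mean relative to WT ran from -0.90 to 1.70 on WT arrays and from 0.51 to 2.19 on Lck-/- arrays. Klrb1c and Ncr1, defining NK receptors, were well above background on 2 of 4 WT and 3 of 3 Lck-/- arrays. Of 14 dendritic and macrophage markers tested, 12 had positive differences and 2 negative, with a median of 0.30. Among them Cd74 and H2-Ab1 were well above background on all 7 arrays, and Adgre1 on 1 of 4 WT and 3 of 3 Lck-/- arrays. In such bulk RNA, fewer cells of a type and less RNA per cell cannot be told apart.

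What the array measured is a 60-base stretch of each transcript. For 7 of the 45 probes the mapped stretch on mm9 was longer than the probe, so that the probe spans a gap in the genome, as a probe over an exon junction does. Of these, 6 are shown in lower case, as examples of probes that read spliced transcript: both subunits of the phenylalanyl enzyme, 3 members of the multisynthetase complex and the mitochondrial isoleucyl enzyme. Their mm9 positions are chr9:108417534-108418156 (Qars), chr11:35633429-35634605 (Rars), chr1:130310284-130311944 (Dars), chr8:87391534-87391694 (Farsa), chr1:78440318-78451340 (Farsb) and chr1:187111041-187111948 (Iars2). Each sequence has at least 1 reading frame without a stop codon.
Qars: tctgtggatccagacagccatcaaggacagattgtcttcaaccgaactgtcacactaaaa
Rars: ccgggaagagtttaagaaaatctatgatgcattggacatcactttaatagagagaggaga
Dars: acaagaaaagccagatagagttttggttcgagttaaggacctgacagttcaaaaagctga
Farsa: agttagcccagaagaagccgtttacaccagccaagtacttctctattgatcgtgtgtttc
Farsb: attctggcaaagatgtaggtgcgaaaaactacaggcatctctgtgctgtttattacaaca
Iars2: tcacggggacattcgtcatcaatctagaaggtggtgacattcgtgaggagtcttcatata
The gap was 563 bases for the Qars probe and 10963 bases for the Farsb probe. The exon or untranslated region under the other probes was not analysed here.

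Promoters were searched because ATF4 acts through the element TGATGNAA. RefSeq windows on GRCm38.p6, from 250 bases before to 50 bases after the start, were matched for 26 of the 35 genes. TGATGNAA, on either strand, was in the window of 4 of 12 matched cytosolic genes and 0 of 14 matched mitochondrial genes, against 4.51% of all 27025 genes with a window. CACGTG, the E-box bound by MYC and other factors, was in 4 of the 12 and 1 of the 14, against 8.09%. The ETS-type sequence CCGGAAG was in 5 of the 12 and 4 of the 14, against 9.93%, and the NRF1 sequence was in none, against 1.07%. The 4 windows with TGATGNAA follow, with every match to these motifs in capitals. They lie at chr8:111033592-111033891 (+ strand) for Aars, chr13:49681880-49682179 (+ strand) for Iars, chr6:55037751-55038050 (+ strand) for Gars and chr15:11399609-11399908 (- strand) for Tars.
Aars: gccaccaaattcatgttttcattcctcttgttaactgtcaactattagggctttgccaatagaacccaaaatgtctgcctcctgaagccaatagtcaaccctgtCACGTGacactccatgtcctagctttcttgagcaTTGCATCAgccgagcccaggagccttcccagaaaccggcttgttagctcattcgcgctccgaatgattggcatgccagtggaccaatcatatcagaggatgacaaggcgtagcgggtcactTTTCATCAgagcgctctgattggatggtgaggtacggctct
Iars: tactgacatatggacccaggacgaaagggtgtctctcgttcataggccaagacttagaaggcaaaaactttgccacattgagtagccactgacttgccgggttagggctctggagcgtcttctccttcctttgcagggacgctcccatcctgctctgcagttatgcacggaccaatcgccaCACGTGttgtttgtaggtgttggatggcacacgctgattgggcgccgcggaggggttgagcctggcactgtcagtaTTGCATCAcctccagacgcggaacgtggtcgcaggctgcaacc
Gars: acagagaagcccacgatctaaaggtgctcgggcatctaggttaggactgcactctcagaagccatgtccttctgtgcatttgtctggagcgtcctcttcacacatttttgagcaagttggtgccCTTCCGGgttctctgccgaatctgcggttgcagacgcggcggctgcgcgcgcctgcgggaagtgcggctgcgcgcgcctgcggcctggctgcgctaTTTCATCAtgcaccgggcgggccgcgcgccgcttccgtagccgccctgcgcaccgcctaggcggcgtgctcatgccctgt
Tars: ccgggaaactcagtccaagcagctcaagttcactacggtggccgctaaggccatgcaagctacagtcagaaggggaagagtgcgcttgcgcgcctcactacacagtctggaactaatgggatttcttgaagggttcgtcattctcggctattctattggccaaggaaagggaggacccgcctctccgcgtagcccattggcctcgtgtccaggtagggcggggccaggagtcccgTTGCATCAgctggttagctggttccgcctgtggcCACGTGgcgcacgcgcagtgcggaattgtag
In these windows TGATGNAA reads on the opposite strand, as TTGCATCA or TTTCATCA, and no match overlaps another. The Aars window holds it 112 bases before the start and again after the start, together with CACGTG. The Gars match lies 30 bases and the Tars match 15 bases before the start. A match is a description of the letters, not evidence of binding.

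None of the 4 genes with that element passed the threshold. Aars, the alanyl enzyme, read 5.64, 5.67, 5.30 and 5.66 on WT 1 to WT 4 and 5.56, 5.54 and 5.48 on Lck-/- 1 to Lck-/- 3. Only WT 3 stood below the rest, and the 3 Lck-/- arrays lay inside the WT range. The difference was -0.05 (SE 0.14). Iars, Gars and Tars differed by -0.04 (SE 0.15), 0.15 (SE 0.17) and -0.05 (SE 0.13). For Gars, the glycyl enzyme, the difference was -0.06 without WT 4 and Lck-/- 1. For Tars, the threonyl enzyme, the pooled SD within groups was 0.08, the smallest among the members.

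**Figure D1:**
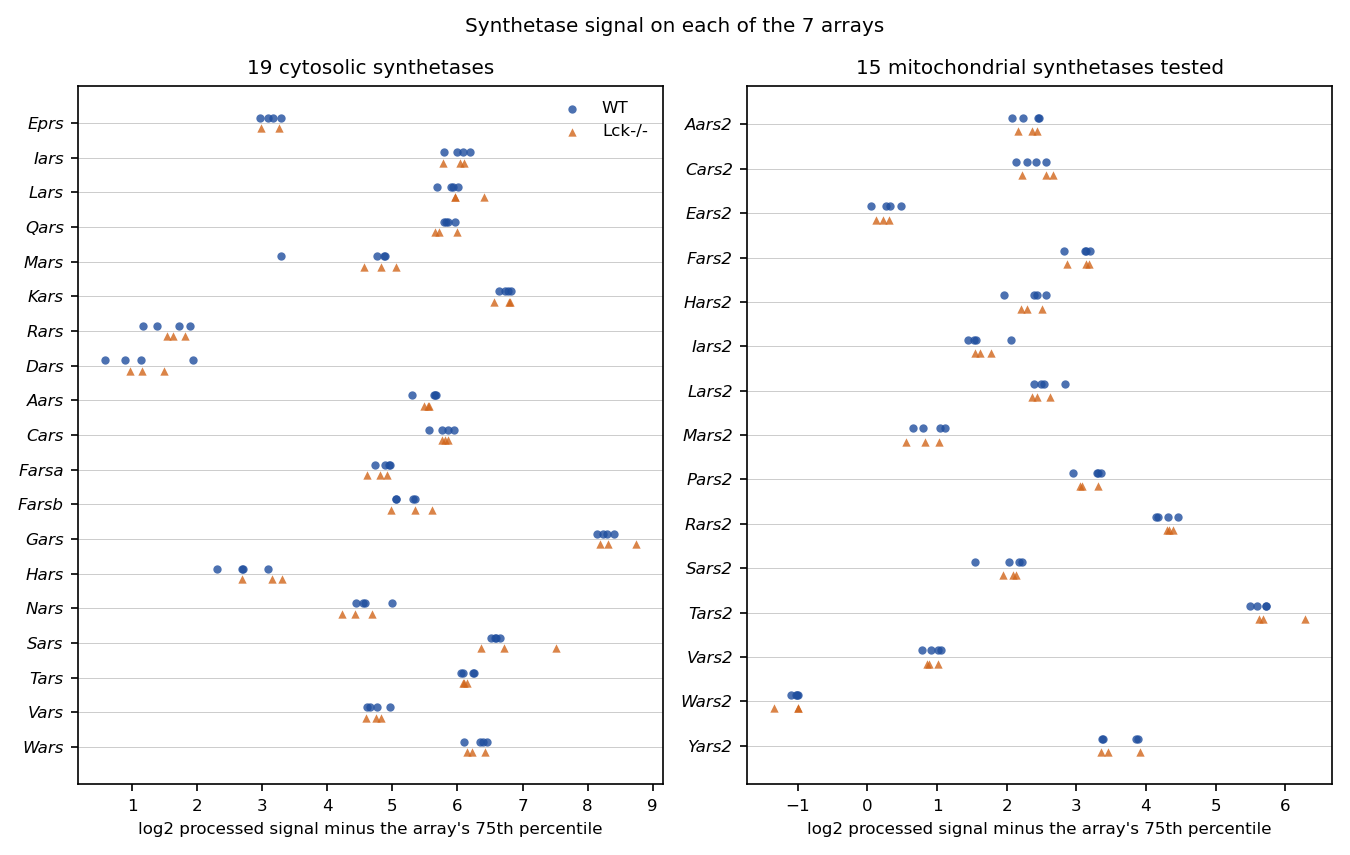
Signal of the 34 tested synthetase genes on each array, as log2 processed signal minus the 75th percentile of that array. Circles are the 4 WT arrays and triangles the 3 Lck-/- arrays. The groups overlap for every gene, and the widest spread is that of Mars, from 3.29 to 5.06. Positions of different genes come from different probes and are not comparable as levels.

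Across the 19 cytosolic enzymes 9 differences were positive and 10 negative, with a median of -0.01. The range was -0.20 (Nars) to 0.36 (Mars). For all 14815 genes tested the median was 0.04, and 57.6% were positive and 42.4% negative. With each array centred on its median instead, the median of all genes moved by -0.20, and 5 synthetases of 34 had positive and 29 negative differences, where it had been 14 and 20. Relative to all genes the cytosolic median was -0.05 with the 75th percentile and -0.02 with the median as reference. No cytosolic member had an unadjusted p under 0.05 and none separated the groups, where 7.13% and 7.19% of all genes did. By direction the shares of all genes were 4.94% (higher) and 2.19% (lower) for the p, and 5.1% and 2.09% for groups that do not overlap. By catalytic fold, 6 of 18 class I and 8 of 16 class II members tested had positive differences, with medians of -0.02 and 0.01.

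Within the multisynthetase complex 4 of 8 differences were positive, with a median of 0.03. Eprs, which fuses the glutamyl and prolyl enzymes, read 3.16, 3.29, 3.08 and 2.97 on WT 1 to WT 4 and 3.25 and 2.98 on Lck-/- 2 and Lck-/- 3. Its spot on Lck-/- 1 was an outlier and was left out. The remaining values overlap, with a difference of -0.01 (SE 0.17). Qars, the glutaminyl enzyme, read 5.96, 5.86, 5.80 and 5.82 in WT and 5.66, 6.0 and 5.72 in Lck-/-. The Lck-/- arrays lay on both sides of the WT values, and the difference was -0.07 (SE 0.14).

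Lars, the leucyl enzyme and a leucine sensor for mTORC1, read 5.93, 5.69, 5.90 and 6.01 in WT and 6.41, 5.96 and 5.96 in Lck-/-. Lck-/- 1 alone lay above all WT arrays. The difference was 0.23 (SE 0.17, limma adjusted p = 0.838), and 0.08 without Lck-/- 1. Mars, the methionyl enzyme that also charges the initiator tRNA, had the largest difference among the members, and it rested on 1 array. It read 4.89, 3.29, 4.87 and 4.77 in WT and 5.06, 4.82 and 4.57 in Lck-/-. WT 2 was far below the other 6 arrays, which overlap. The difference of 0.36 (SE 0.39) became -0.03 without WT 2.

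Dars, the aspartyl enzyme, showed the opposite deviation on that array. It read 0.58, 1.93, 0.89 and 1.13 in WT and 1.15, 0.97 and 1.49 in Lck-/-, with WT 2 highest, and the difference was 0.07 (SE 0.31). Iars, Kars and Rars, the isoleucyl, lysyl and arginyl enzymes, had differences between -0.04 and 0.13. The 3 scaffold genes all lay above 0, the median being 0.16. Eef1e1 differed by 0.19 (SE 0.16), Aimp1 by 0.16 (SE 0.15) and Aimp2 by 0.09 (SE 0.20), and none of the 3 passed the threshold.

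Among the free cytosolic enzymes, Wars, the tryptophanyl enzyme, is known as an interferon gamma-induced gene. It read 6.46, 6.35, 6.10 and 6.40 on WT arrays and 6.14, 6.42 and 6.23 on Lck-/- arrays, all within the WT range. The difference was -0.07 (SE 0.15, limma adjusted p = 0.975), with a 95% interval from -0.41 to 0.28. A further Wars probe gave WT values of 2.71 ± 0.20 (SD, n = 4) beside Lck-/- values of 2.71 ± 0.26 (SD, n = 3). The list of 19 interferon gamma response genes had 18 tested, of which 12 had positive differences, with a median of 0.10, and 0 passed the threshold. Its smallest p-values were those of the immunoproteasome subunit Psmb8 at 0.60 (SE 0.13, limma adjusted p = 0.592) and the cytokine signalling inhibitor Socs1 at 0.72 (SE 0.18, limma adjusted p = 0.605).

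Cars, the cysteinyl enzyme, read 5.85, 5.57, 5.77 and 5.95 in WT and 5.81, 5.76 and 5.86 in Lck-/-. The Lck-/- arrays sat in the middle of the WT range, with a difference of 0.02 (SE 0.14). The phenylalanyl enzyme is built from an alpha subunit, encoded by Farsa, and a beta subunit, encoded by Farsb. Farsa read 4.97, 4.95, 4.73 and 4.88 in WT and 4.61, 4.91 and 4.81 in Lck-/-. Lck-/- 1 was its lowest array, and the difference was -0.10 (SE 0.14). Farsb read 5.32, 5.06, 5.05 and 5.34 in WT and 5.61, 5.35 and 4.98 in Lck-/-. Here Lck-/- 1 was the highest array, and the difference was 0.12 (SE 0.18). Neither subunit separated the groups.

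The histidyl enzyme Hars had the smallest unadjusted p of any member (0.165). It read 2.69, 2.71, 2.30 and 3.08 in WT and 2.68, 3.15 and 3.31 in Lck-/-. Lck-/- 2 and Lck-/- 3 were above all WT arrays, while Lck-/- 1 lay in their midst. The difference was 0.35 (SE 0.23, limma adjusted p = 0.817), with a 95% interval from -0.18 to 0.88. Without WT 4 and Lck-/- 1 it was 0.66 (limma adjusted p = 0.299), with an unadjusted p under 0.05 for 1 member in that setting, and it ranged from 0.14 to 0.66 over all settings.

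Nars, the asparaginyl enzyme, had the most negative difference, -0.20 (SE 0.18, limma adjusted p = 0.884). It read 4.99, 4.58, 4.55 and 4.44 in WT and 4.68, 4.42 and 4.22 in Lck-/-. WT 1 was highest and Lck-/- 3 lowest, with the other 5 arrays between them. Sars, the seryl enzyme, read 6.60, 6.57, 6.66 and 6.52 in WT and 7.51, 6.72 and 6.36 in Lck-/-. Lck-/- 1 was well above the rest, Lck-/- 2 lay just above the WT arrays and Lck-/- 3 below them. The difference of 0.27 (SE 0.25) became -0.05 without Lck-/- 1. Vars, the valyl enzyme, differed by -0.02 (SE 0.15).

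**Figure D2:**
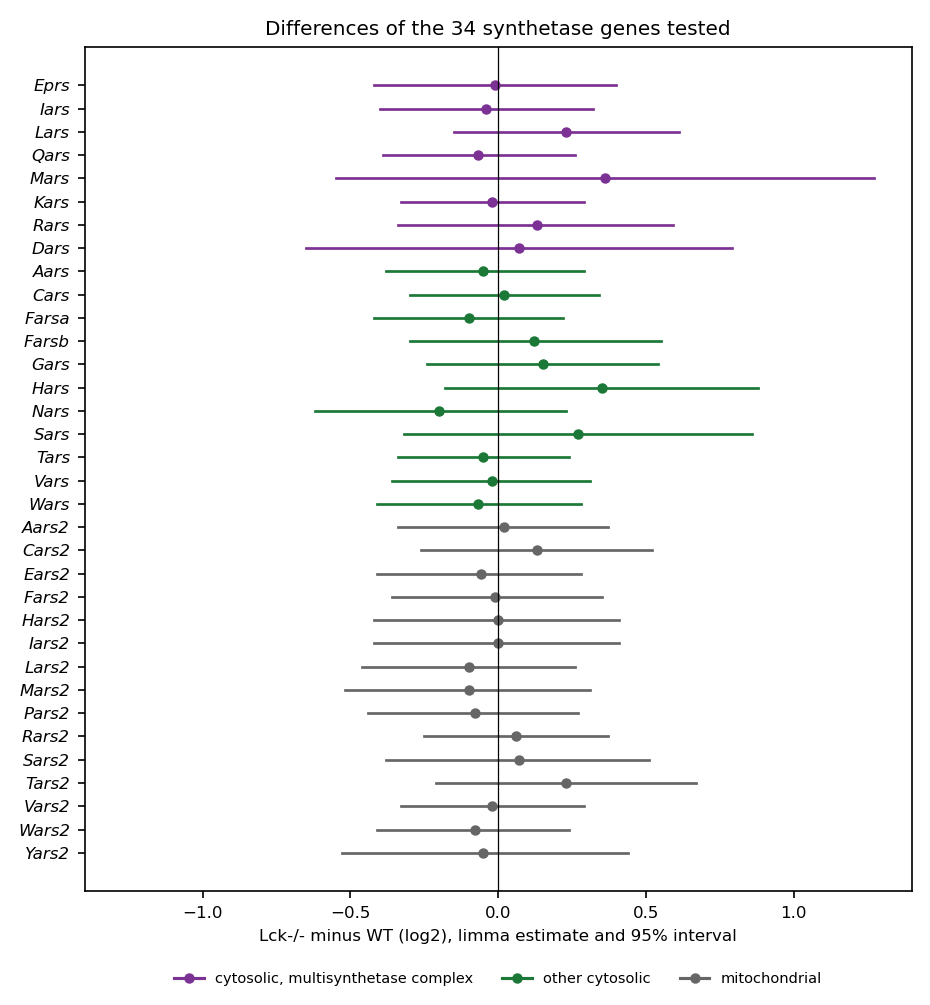
Difference between Lck-/- and WT for each tested synthetase gene, on the log2 scale, with its limma estimate (point) and 95% interval (line). Colours mark members of the multisynthetase complex, other cytosolic enzymes and mitochondrial enzymes. All intervals include 0, and only that of Mars, from -0.55 to 1.27, reaches past 1 log2 unit.

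The 16 mitochondrial enzymes were as close between the groups. Of the 15 tested, 5 differences were positive and 10 negative, with a median of -0.01 and a range from -0.10 to 0.23. None had an unadjusted p under 0.05. Relative to all genes the mitochondrial median was -0.05 with either reference, and the cytosolic and mitochondrial medians differed by 0 with the 75th percentile and by 0.03 with the median as reference. Leaving out WT 4 and Lck-/- 1 gave medians of 0.04 for the mitochondrial and -0.01 for the cytosolic enzymes.

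Tars2, the mitochondrial threonyl enzyme, had the smallest p of this group. It read 5.73, 5.49, 5.59 and 5.72 in WT and 6.29, 5.68 and 5.62 in Lck-/-. As for Lars, Lck-/- 1 alone was above the WT arrays. The difference was 0.23 (SE 0.19, limma adjusted p = 0.863), and 0.02 without Lck-/- 1. Cars2, the cysteinyl enzyme, read 2.56, 2.14, 2.29 and 2.42 in WT and 2.67, 2.56 and 2.22 in Lck-/-. Lck-/- 1 was highest and WT 2 lowest, and the difference was 0.13 (SE 0.17).

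Lars2, the leucyl enzyme, read 2.84, 2.50, 2.40 and 2.54 in WT and 2.36, 2.62 and 2.43 in Lck-/-. WT 1 stood above the other 6 arrays, and the difference was -0.10 (SE 0.15). Iars2, the isoleucyl enzyme, read 2.06, 1.56, 1.53 and 1.45 in WT and 1.62, 1.77 and 1.54 in Lck-/-. WT 1 was again highest, while the group means were 1.65 and 1.65. Yars2, the tyrosyl enzyme, read 3.88, 3.37, 3.38 and 3.86 in WT and 3.45, 3.92 and 3.36 in Lck-/-. Its values formed a higher set on WT 1, WT 4 and Lck-/- 2 and a lower set on the other 4 arrays. This split ran across the labels and was the same as that by slide row, with the higher set in row 2. Lars2 was likewise higher on every array of row 2 than on any of row 1. The part of slide row was not tested. For Yars2 the difference was -0.05 (SE 0.21).

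The other tested mitochondrial members were Aars2, Ears2, Fars2, Hars2, Mars2, Pars2, Rars2, Sars2, Vars2 and Wars2, with differences between -0.10 (Mars2) and 0.07 (Sars2). Wars2 had the tightest WT values of them, -1.03 ± 0.04 (SD, n = 4). Nars2 measured -4.69 ± 0.84 (SD, n = 4) for WT beside -4.89 ± 0.23 (SD, n = 3) for Lck-/-. Its probe was well above background on 1 WT array and no Lck-/- array, so no fold is given. Of 14 partner genes of tRNA charging and maturation, 11 had positive differences, with a median of 0.07, and 0 passed. Dtd1, which removes D-amino acids from tRNA, differed by 0.40 (SE 0.19) and Trmu, which thiolates mitochondrial tRNA, by 0.12 (SE 0.16).

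Several genes were read by more than 1 probe, and their probes did not always give differences of the same sign. For 9 genes with several probes, the 10 probes not chosen to represent the gene had differences from -0.34 to 0.45. The highest was that of a Farsa probe designed to another transcript, whose WT values were -0.57 ± 0.45 (SD, n = 4) beside -0.12 ± 0.34 (SD, n = 3) for Lck-/-. The Farsa probe printed above measured 3.05 ± 0.26 (SD, n = 4) for WT beside 3.15 ± 0.20 (SD, n = 3) for Lck-/-. Its difference of 0.11 stands against -0.10 for the chosen probe. The lowest difference came from an Aars probe that was well above background on only 3 of 7 arrays. For Iars2 and Wars the additional probes differed by 0.02 and 0.00.

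The spread within groups sets what such data can show. The pooled SD of single members ran from 0.08 (Tars) to 0.62 (Mars), and 30 of 34 were under 0.3. Its median was 0.17 for cytosolic and 0.17 for mitochondrial members, against 0.25 for all genes tested and 0.22 for the 9696 genes in the same range of signal. The median absolute difference was 0.07 and 0.06 for these groups, against 0.15 for all genes and 0.13 for genes in that range. The 95% interval of the difference lay within 1 log2 unit either way for 33 of 34 members and within 0.5 for 20 of 34.

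**Figure D3:**
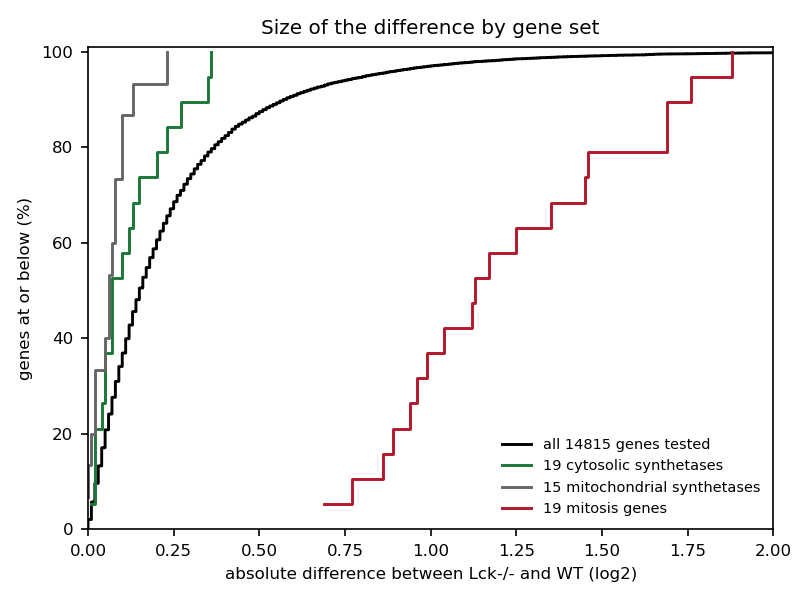
Cumulative share of genes (%) by absolute difference between Lck-/- and WT (log2) for all 14815 genes tested, the 19 cytosolic and 15 mitochondrial synthetases and 19 mitosis genes. The synthetase curves reach 100% at 0.36 and 0.23, before the mitosis curve begins.

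The mitosis list differed more between the same arrays. All 19 tested members of the mitosis list had negative differences, with a median of -1.13, and 15 had an unadjusted p under 0.05 (2.19% of all genes did in that direction). None passed the threshold over all genes. Like the other lists, this one was chosen with earlier results of these data known. Its median pooled SD was 0.68, and its genes mostly rose and fell together across arrays, so their p-values are not separate evidence. Aurka, a spindle kinase, differed by -1.25 (SE 0.38, limma adjusted p = 0.605) and Ube2c, a ubiquitin-conjugating enzyme of mitotic exit, by -1.76 (SE 0.59, limma adjusted p = 0.629). Relative to the WT mean, the mitosis mean was 0.90, -0.62, 0.47 and -0.72 on WT 1 to WT 4 and -0.60, -1.52 and -1.53 on Lck-/- 1 to Lck-/- 3. The cytosolic synthetase mean was 0.08, -0.04, -0.10 and 0.06 in WT and 0.14, 0.06 and -0.02 in Lck-/-. The mitochondrial mean was 0.15, -0.04, -0.20 and 0.08 in WT and -0.01, 0.11 and -0.09 in Lck-/-. Both synthetase means thus stayed within 0.20 of 0 on every array. The mitochondrial mean was above 0 on the arrays of slide row 2 (WT 1, WT 4 and Lck-/- 2) and below 0 on the others. The cytosolic mean was highest on Lck-/- 1, in row 1. The part of slide row was not tested.

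**Figure D4:**
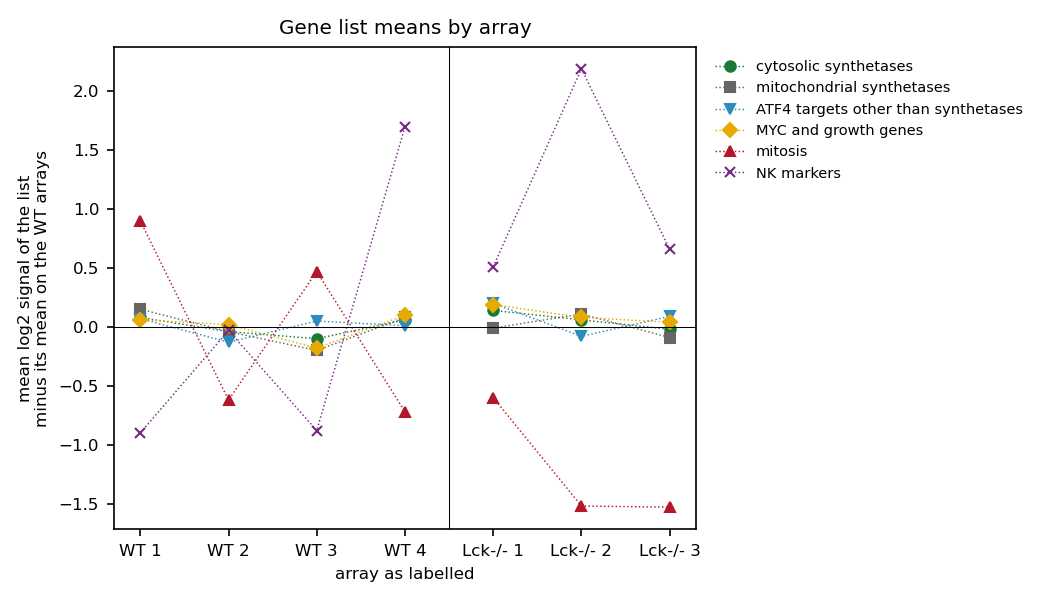
Mean log2 signal of each gene list on each array, minus its mean over the 4 WT arrays. Cytosolic and mitochondrial synthetases, ATF4 targets and MYC with growth genes lie between -0.20 and 0.20 on all arrays, whereas mitosis genes span -1.53 to 0.90 and NK markers -0.90 to 2.19. Dotted lines join arrays of a group only to guide the eye, since arrays have no order.

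The highest and lowest arrays differed among members. Of the 33 members with a value on every array, 13 were highest on WT 1 and 7 on Lck-/- 1, while 11 were lowest on WT 3 and 8 on Lck-/- 3. Among mitochondrial members 8 were highest on WT 1 and 7 lowest on WT 3. Among cytosolic members WT 1 and Lck-/- 1 were each highest for 5, and Lck-/- 3 was lowest for 6, against 4 on WT 3. WT 3 had 1403 spots marked as non-uniform, the most of any array, and the part of spot quality in its low values was not tested. Pairs of mitochondrial members correlated across the 7 arrays with a median r of 0.43, cytosolic pairs with 0.24 and complex members with 0.05. These correlations are descriptions, since all genes share the arrays and their scaling.

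Transcripts of the regulators known for this family were compared as well, while the activity of the proteins was not measured. Atf4 differed by 0.10 (SE 0.19), Eif2ak4, which encodes GCN2, by 0.04 (SE 0.13) and Myc by 0.22 (SE 0.19). Of 11 amino acid sensing genes tested, 5 had positive differences, with a median of -0.03, and the smallest p-values were those of the mTORC1 inhibitor Ddit4 at 0.47 (SE 0.29) and the lysosomal anchor Lamtor1 at -0.14 (SE 0.15). The 15 MYC and growth genes had 11 positive differences and a median of 0.11, with Nop56 and Ddx21, both of ribosome assembly, at 0.30 (SE 0.21) and 0.23 (SE 0.16). None of these genes passed the threshold.

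Among 22 ATF4 targets other than synthetases, 15 differences were positive, with a median of 0.07, and 0 passed. Ddit3, the stress factor CHOP, read 0.54, 0.12, 0.58 and 0.86 in WT and 1.14, 1.27 and 1.23 in Lck-/-. All 3 Lck-/- arrays were above all WT arrays, and the difference was 0.69 (SE 0.19, limma adjusted p = 0.605). Cebpg, a partner of ATF4, read 1.36, 1.25, 1.20 and 1.32 in WT and 1.63, 1.52 and 1.55 in Lck-/-. Its groups did not overlap either, with a difference of 0.28 (SE 0.12, limma adjusted p = 0.694). Groups with Lck-/- above WT were found for 5.1% of all genes, so 2 of 22 is close to that share. Asns, the asparagine synthetase gene and a classical ATF4 target, differed by -0.18 (SE 0.17).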

How the data were processed

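The 7 single-colour arrays were read with Feature Extraction 10.7.3.1, per the file headers, giving a spot intensity that is background-subtracted and detrended within the array but not scaled between arrays. Probe positions are on mm9. A deposited table gives log2 values per probe. Against log2 median spot signal its columns had r of 0.9994 to 0.9998, and their medians were 6.57 to 6.61. The submitters' processing notes name limma, its normalization between arrays is not stated there, and the table served only as an alternative.

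Levels are log2 of the processed signal minus the 75th percentile of the array. Outlier spots were left out, probes had to be well above background on at least 3 of 7 arrays, and the passing probe of highest mean stood for its gene. Of 55681 probes, 22497 stayed unnamed. Groups were compared with limma 3.58.1 in R 4.3.3 (two-sided, Benjamini-Hochberg over 14815 genes, threshold 0.05), a procedure tested on simulated data. Other settings were quantile normalization, normexp with offset 50, median centring, the deposited table, 2 other filters, probe means, replicate blocks, array weights, a robust trend and leaving out arrays. No setting used slide row as a block. The members and gene lists were chosen with earlier results of these data known. Full values are given for members picked by role and for the 3 cytosolic and 3 mitochondrial members with the smallest p, and from other lists for the 2 smallest p. Mars, Sars, Dars, Atf4, Eif2ak4, Myc, Asns and the genes named in passing were added after their values were seen. Motif searches used RefSeq promoter windows of GRCm38.p6. Protein sequences were not analysed here. The precision of every value is limited by the number of arrays.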

Additional observations from a re-analysis of the deposited data

Results flagged for a closer look

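In 4 of the 34 synthetase genes with values on all 4 WT arrays, 1 WT array stood apart from the other 3. Chance flags about 1 in 20 groups of this size. Mars read 3.29 on WT 2, against 4.77 to 4.89 on the other WT arrays. Aars read 5.30 on WT 3 against 5.64 to 5.67, Fars2 read 2.83 on WT 3 against 3.13 to 3.19, and Pars2 read 2.96 on WT 3 against 3.30 to 3.36. WT 3 was thus the low array for 3 of the 4 genes. The cause was not tested.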

How the results depend on the processing

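No synthetase gene passed the adjusted threshold in any of the 19 other settings, and the lowest adjusted p of any member was 0.299 (Hars, without both WT 4 and Lck-/- 1). The number of genes called on the whole array, 0 as reported (1057 at an unadjusted p under 0.05), was 39 higher and 21 lower without those 2 arrays. It was 1 higher with the title number as replicate block (Klra15), 1 lower with the file number as replicate block (Tshb) and 1 lower with array weights (Timd2). Leaving out each array in turn gave 0 to 1 higher and 0 lower. That call was Xist without WT 1, with a difference of 7.13 (limma adjusted p = 0.00696). Whether the mice behind the arrays differed in sex was not tested, and a sex difference along the labels could not be told apart from Lck loss. With median centring the synthetase medians were -0.18 (cytosolic) and -0.21 (mitochondrial), which follows from the shift of all genes by -0.20. In the other settings the medians ran from -0.05 to 0.05 and from -0.08 to 0.04.

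The sign of an uncalled difference changed in at least 1 setting for 27 of 34 members, most often for Hars2 (10 of 19), Fars2 (9), Aars2 (7) and Vars2 (7), and for Gars in 5. Among the members given with full values in the text, Cars was -0.05 and Eprs 0 with quantile normalization, and Iars2 was 0.01 with either quantile or normexp normalization. Median centring gave -0.18 for Cars, -0.08 for Farsb, -0.08 for Cars2 and -0.13 for Dars. Averaging the probes gave 0.15 for Farsa and 0.01 for Iars2, and moved Aars to -1.33, because its dim probe lacked a value on WT 3. The replicate block by title number gave 0.03 for Yars2. That by file number gave -0.05 for Cars, 0.09 for Eprs and -0.03 for Mars, and array weights gave -0.05 for Farsb. For members with a value on every array, the title block gave the same estimates as leaving out WT 4, which has no same-numbered partner. The file block likewise repeated those without WT 2. The blocks are thus not separate settings among the 19 for the sign of a difference. Without both arrays that go against their label, Wars was 0.02, Yars2 0.10 and Sars -0.07.

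Leaving out each array in turn, those of the same members that changed direction ranged as follows: Cars -0.05 to 0.08, Dars -0.11 to 0.34, Eprs -0.15 to 0.12, Farsb -0.03 to 0.29, Iars2 -0.07 to 0.13, Mars -0.03 to 0.50, Qars -0.17 to 0, Sars -0.05 to 0.53 and Yars2 -0.22 to 0.06.

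Same-numbered arrays deviated from their group means with correlations of 0.10, 0.06 and 0.02, and WT 3 correlated best with Lck-/- 1 (0.40), so the numbers were not taken as pairs. The block by title number changed no synthetase call. Low signal leaves Nars2 without an interpretable difference.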
